A study of Mus musculus with 6 samples.

Results

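The cytosolic ribosomal protein genes were examined in J774 cells, a mouse macrophage line, after transfection with a control siRNA or with an siRNA against *Ncoa4*, which encodes the cargo receptor that delivers ferritin to the lysosome. The members were chosen by symbol: protein-coding genes named Rpl or Rps with a number, together with *Rpsa* and *Rplp0* to *Rplp2*, with kinases, pseudogenes and paralogues ending in l left out. The members also had to reach a mean of at least 10 TPM (a transcript level relative to all RNA of its library and corrected for gene length) over the 6 libraries. Of 55487 gene identifiers in the data, 78 symbols met the naming rule and 76 of them met the threshold: 44 of the large subunit and 32 of the small subunit. The threshold used the measured level, so the levels below are a description.

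Each group had 3 libraries from biological replicates of J774 cells kept in ordinary growth medium with serum. The control siRNA group received a negative control siRNA and the NCOA4 siRNA group an siRNA specific for NCOA4, both carried by a liposome reagent. A single NCOA4 siRNA was used, so effects of that siRNA other than on NCOA4 cannot be told apart from those of the depletion. Poly(A) RNA was read on stranded libraries. Because the libraries are bulk RNA and TPM is relative, a change in ribosomal protein mRNA per cell and a change in the amount of all other mRNA cannot be told apart.

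Ribosomal proteins and ribosomal RNA build the ribosome, whose small subunit decodes messenger RNA and whose large subunit joins amino acids. A ribosome holds most of its proteins in equal number, with the acidic proteins of the stalk as an exception, and cells adjust much of their supply at translation. The mRNAs start with a run of pyrimidines, the terminal oligopyrimidine or TOP motif, through which mTORC1 and the RNA-binding protein LARP1 switch their translation with nutrients and growth. An mRNA level therefore does not give the rate at which the protein is made. Mammalian genomes also hold many retrocopies of these genes, most of them annotated as pseudogenes, and their sequence can be nearly the same as that of the mRNA.

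The letters CTTTCC, a short run of pyrimidines, are shown in capitals for 5 members that stand for the results below, within 30 bases of the transcribed strand around the annotated start, read from RefSeq promoter windows of GRCm38.p6. *Rps27* had one of the largest fold changes, *Rpl35* had the lowest fold change, *Rps10* and *Rpl35a* lay just inside the threshold, and *Rpl38* has these letters at the annotated start itself. In *Rpl35* they began at position -5, so that most of them lay before the annotated start. The stretches lie at chr3:90213630-90213659 (minus strand), chr2:39005119-39005148 (minus strand), chr17:27635223-27635252 (minus strand), chr16:33056472-33056501 (plus strand) and chr11:114668568-114668597 (plus strand).
Rps27: ccgctttcgctcCTTTCCggcggtgacgac
Rpl35: gtcggccccgccCTTTCCtctttctctcga
Rps10: gcacgccccttcCTTTCCagcctccgcctc
Rpl35a: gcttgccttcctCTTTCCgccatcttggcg
Rpl38: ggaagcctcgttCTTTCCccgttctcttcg

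Of the 76 members, 57 had a RefSeq window. CTTTCC lay on the transcribed strand within 50 bases of the start in 19 of 57 members (33.3%) and in 5.37% of 26968 other genes. On the opposite strand it was found in 1 of 57 members (1.75%) and in 5.13% of the others. Both letter strings CCGGAAG (the ETS factor core) and AAGATGG (the YY1 core) were also searched in the whole window of 300 bases, and the end of the former can overlap the beginning of the latter. CCGGAAG was present in 26.3% of the members and 5.35% of the other genes on the transcribed strand, and in 17.5% and 5.37% on the opposite strand. AAGATGG was present in 7.02% and 4.16% on the transcribed strand, and in 8.77% and 3.25% on the opposite strand. Whether any factor bound these letters was not measured. *Rps27* and *Rpl35* both hold CTTTCC near the start and lay near opposite ends of the fold changes below.

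*Ncoa4* itself had 19.7, 22.5 and 22.4 TPM in the control siRNA libraries and 9.63, 8.60 and 8.88 TPM in the NCOA4 siRNA libraries, a log2 fold change of -1.21 ± 0.08 (SE; limma, adjusted p = 0.00127, n = 3 per group). All 8 macrophage markers examined were expressed, including *Lyz2* at 4683 to 5466 TPM and *Csf1r* at 318 to 430 TPM. The summed level of 12 markers of other cell types was 0.386 to 0.966 TPM, with 8 of them at 0 in every library. Of the 8 macrophage markers, 3 rose and 1 fell, where 3.11% of all tested genes rose and 2.31% fell. *Mrc1*, *Csf1r* and *Adgre1* rose, with log2 fold changes of 0.86, 0.31 and 0.61 (limma, adjusted p = 0.00118, 0.0218 and 0.0248). *Cd14* fell (-0.27, limma, adjusted p = 0.0361). The summed level of the 8 markers was 8599 to 8781 TPM with control siRNA and 8938 to 9040 TPM with NCOA4 siRNA. Their part in the results below was not tested. Whole reads rebuilt from TPM and gene length came to between 15502131 and 18282107 per library, of which 1007515 to 1237804 lay on the members. The members averaged from 186 reads (*Rps10*) to 80008 reads (*Rpsa*) per library.

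Ribosomal protein mRNA took a larger share of the transcriptome in every NCOA4 siRNA library than in any control siRNA library. The members held 10.6%, 11.3% and 11.8% of all TPM in the control siRNA libraries and 12.3%, 12.3% and 12.5% in the NCOA4 siRNA libraries. The means were 11.2% ± 0.610 and 12.4% ± 0.115 (SD, n = 3 each), a difference of 1.14 percentage points. Large subunit genes went from 6.72% ± 0.384 to 7.42% ± 0.0911 and small subunit genes from 4.49% ± 0.230 to 4.93% ± 0.0341. No test was made of these sums, since the members were chosen with results of these libraries known. The share of whole reads on the members was 6.04%, 6.24% and 6.50% against 6.75%, 6.86% and 6.93%, again without overlap.

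Control siRNA replicate 1 stood apart from the other libraries and carried part of this difference. There, 59 of 76 members were below the mean of control siRNA replicates 2 and 3, by a median of -0.14 on the log2 scale, and 55 members had their lowest value of all 6 libraries. The deviation ran from -0.82 for *Rpl26* to 0.48 for *Rps26*, a small subunit protein at the mRNA exit. In the same library, genes of the mitochondrial genome took 12.9% of TPM, against 9.36% to 10.2% in the other 5. With these genes removed and TPM rescaled, the difference in TPM share was 1.15 percentage points over all 6 libraries. The median log2 fold change of the members was then 0.12, and 0.14 with them kept, against 0.02 and 0.03 over all tested genes. Why this library differed was not tested. Without this library, the difference in TPM share was 0.819 percentage points, and the 2 remaining control libraries (11.3% and 11.8%) still lay below the 3 NCOA4 siRNA libraries. The members varied more among the control libraries than among the NCOA4 siRNA libraries: the SD of log2 values was larger in the former for 71 of 76 members, with medians of 0.120 and 0.0322. Genes at large showed this too, by a chi-square per gene between 2 libraries over 12040 to 12275 genes. It was 11.6 and 11.7 for control siRNA replicate 1 against replicates 2 and 3, and 3.60 between those. Between NCOA4 siRNA replicates it was 1.96 to 2.35. For the counts of 59, 55 and 71 members, shares over all tested genes were not computed.

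**Figure D1:**
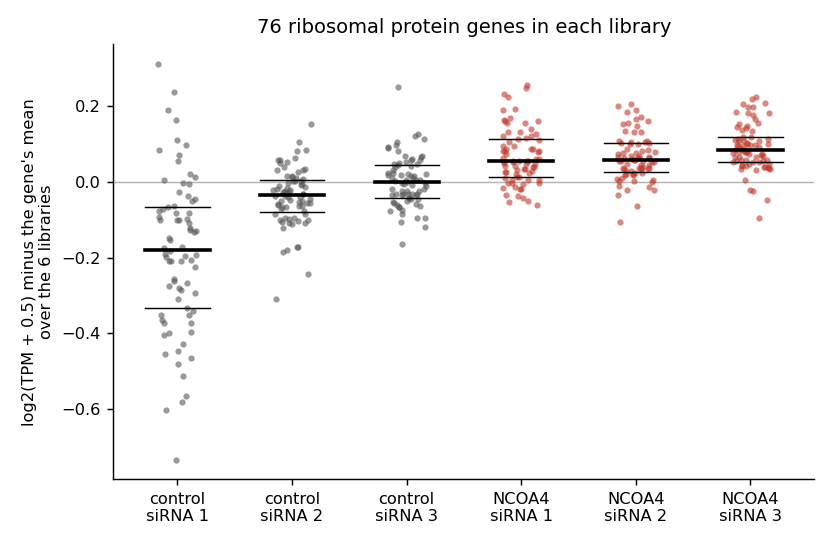
Log2(TPM + 0.5) of the 76 ribosomal protein genes in each of the 6 libraries, less the gene's mean over the 6 libraries. Each point is a gene, the thick line is the median and the thin lines are the quartiles. The medians are -0.18, -0.03 and 0.00 in the control siRNA libraries and 0.06, 0.06 and 0.08 in the NCOA4 siRNA libraries, and control siRNA replicate 1 has the widest spread.

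Gene by gene, the shift was small, and few members passed the test across all genes. In limma on log2(TPM + 0.5), 2 of 76 members, *Rpl36a* and *Rps28*, rose at an adjusted p under 0.05 and 0 fell, where 3.11% of the 13829 tested genes rose and 2.31% fell. At an unadjusted p under 0.05, 27 members were higher (12.7% of tested genes) and 0 were lower (8.84%). The values of the groups did not overlap in 41 members, all with NCOA4 siRNA higher, beside 16.6% of tested genes higher and 11.8% lower. The log2 fold change was above 0 in 71 of 76 members and in 57.4% of tested genes. Its median was 0.14 over the members and 0.03 over all tested genes, that is a level 10.0% and 2.16% higher. No member had a fold change above 1.5. With each library centred on its median, the median over the members was 0.08, against -0.03 over all tested genes. There 60 members lay above 0, while more tested genes lay below 0 than above it. Of the members, 0 were called higher (2.52% of tested genes) and 0 lower (622 of 13829 tested genes).

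These counts moved with control siRNA replicate 1. Without it, the median over the members was 0.09, and 13 members rose and 0 fell at an adjusted p under 0.05, where 3.28% of tested genes rose and 2.78% fell. With it in place and whole reads tested in place of TPM (limma-voom), 24 members rose and 0 fell, where 6.91% of tested genes rose and 4% fell. Of the 13 and the 24, 12 genes were in both, *Rpl36a* and *Rps28* among them. In 46 of 76 members all 3 NCOA4 siRNA values were above both control siRNA replicates 2 and 3, against 20.7% of tested genes, and in 0 members all were below, against 18.4%.

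*Rps28*, a small subunit protein beside the exit of the mRNA channel, lies at chr17:33819027-33824562 of GRCm38. It had 494, 553 and 575 TPM in the control siRNA libraries and 645, 655 and 685 TPM in the NCOA4 siRNA libraries. The lowest NCOA4 siRNA value was above the highest control value, and the level rose 1.22-fold, a log2 fold change of 0.29 ± 0.06 (SE, 95% interval 0.14 to 0.44; limma, adjusted p = 0.0470). Over 4 annotated copies matched to *Rps28* a further 707 TPM were listed. The most abundant was *Gm10443*, whose 210 bases are all found in the *Rps28* mRNA, and its values were 353, 664 and 694 TPM against 799, 806 and 765 TPM. With these copies added, the log2 fold change of *Rps28* was 0.41 (limma, adjusted p = 0.172).

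*Rpl36a*, a large subunit protein near the site where the emptied transfer RNA leaves, lies at chrX:134585654-134588062. It had 389, 417 and 422 TPM in the control siRNA libraries and 478, 466 and 472 TPM in the NCOA4 siRNA libraries. The groups did not overlap, and the level rose 1.15-fold, a log2 fold change of 0.21 ± 0.04 (SE, 95% interval 0.11 to 0.31; limma, adjusted p = 0.0422). Its copy *Rpl36a-ps2* on chromosome 3, whose 321 bases match the mRNA without a mismatch, rose too, from 301, 345 and 350 TPM to 424, 439 and 418 TPM (log2 fold change 0.37 ± 0.06, adjusted p = 0.0251). A read within those bases cannot be assigned to either gene by sequence. With its copies added, *Rpl36a* had a log2 fold change of 0.28 (adjusted p = 0.0264). Both calls, on *Rps28* and *Rpl36a*, were lost when libraries were centred on their median (adjusted p = 0.0529 and 0.0523) or when any library other than control siRNA replicate 1 was left out, with an adjusted p of 0.0546 or more. They were also lost with no filter on low TPM (adjusted p = 0.0918 and 0.0723), with eBayes without a trend (0.105 and 0.105) and with the replicate block (0.0772 and 0.129).

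The stalk of the large subunit recruits the elongation factors, and no difference between its parts was tested. *Rplp0*, the base of the stalk, had 2228, 2742 and 2871 TPM in the control siRNA libraries and 3356, 3253 and 3331 TPM in the NCOA4 siRNA libraries, without overlap, a log2 fold change of 0.35 ± 0.10 (adjusted p = 0.0901). Leaving out control siRNA replicate 1 made it 0.24 with an adjusted p of 0.0135. *Rplp1*, one of the acidic proteins that hang from it and the most abundant member, had 5991, 6479 and 7783 TPM against 8131, 7600 and 8085 TPM (log2 fold change 0.24 ± 0.10, adjusted p = 0.226). The groups overlapped there, as they did for its partner *Rplp2*, with 741, 751 and 813 TPM against 783, 742 and 827 TPM. *Rplp2* had a 95% interval of -0.11 to 0.16, and *Rpl12*, which anchors the stalk, one of -0.07 to 0.12 with 857 to 898 TPM against 888 to 913 TPM.

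*Rpl5* and *Rpl11* enter the ribosome together with the 5S RNA, and outside it they bind MDM2 and so raise p53. *Rpl5* had 846, 904 and 889 TPM in the control siRNA libraries and 990, 971 and 970 TPM in the NCOA4 siRNA libraries, without overlap (log2 fold change 0.15 ± 0.04, adjusted p = 0.0885, and 0.0467 without control siRNA replicate 1). *Rpl11* had 948, 937 and 951 TPM against 911, 931 and 991 TPM, with the NCOA4 siRNA values on both sides of the controls and an interval of -0.11 to 0.10. *Mdm2* had 86.5, 80.1 and 80.6 TPM against 77.9, 71.6 and 70.9 TPM (log2 fold change -0.17 ± 0.05, adjusted p = 0.142). *Trp53*, which encodes p53, had 198, 191 and 199 TPM against 218, 216 and 216 TPM (log2 fold change 0.14 ± 0.03, adjusted p = 0.0675). *Cdkn1a*, a target of p53, had 274, 264 and 282 TPM against 280, 276 and 288 TPM (log2 fold change 0.04 ± 0.04, adjusted p = 0.592).

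*Rps6*, the small subunit protein that S6 kinases phosphorylate, had 3009, 2721 and 2691 TPM in the control siRNA libraries and 2779, 2820 and 2693 TPM in the NCOA4 siRNA libraries. The groups overlapped, and the log2 fold change was -0.02 (95% interval -0.16 to 0.12). *Rps27a*, which is made as a fusion with ubiquitin, had 784, 1171 and 1195 TPM against 1324, 1272 and 1319 TPM. Its control siRNA replicate 1 was far below the other 2 controls: the log2 fold change of 0.34 ± 0.16 (adjusted p = 0.267) became 0.14 without that library (adjusted p = 0.0468).

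**Figure D2:**
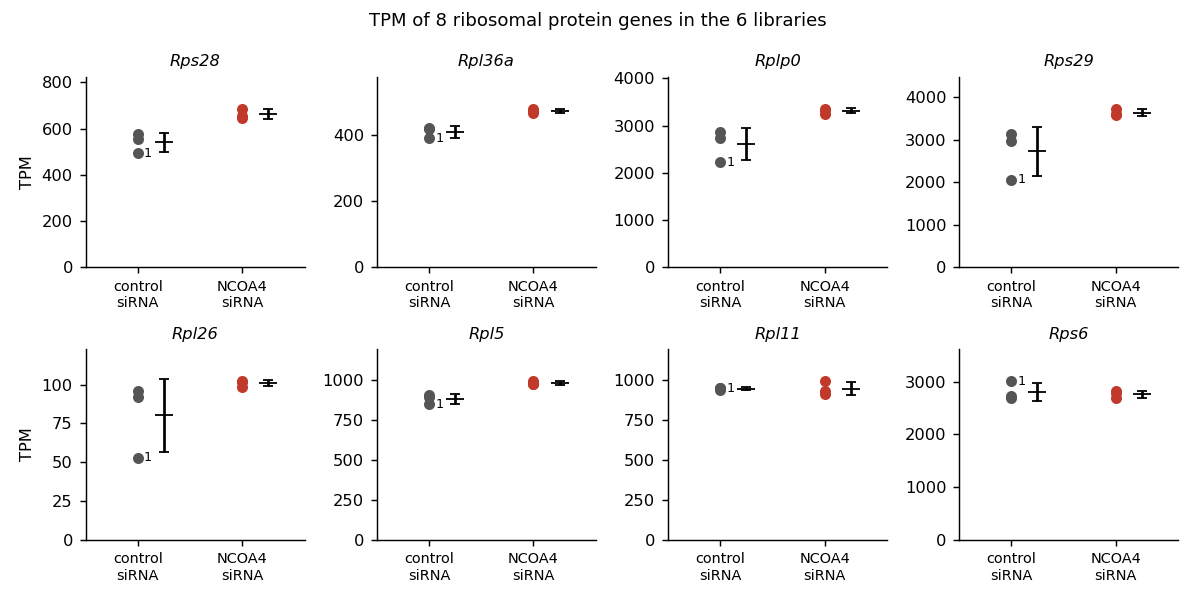
TPM of 8 ribosomal protein genes, each panel starting at 0, with grey points for control siRNA libraries, red points for NCOA4 siRNA libraries and the mean ± SD (n = 3) beside them. The digit 1 marks control siRNA replicate 1, which is the lowest library for *Rps28*, *Rpl36a*, *Rplp0*, *Rps29*, *Rpl26* and *Rpl5* but the highest for *Rps6*.

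The 5 largest log2 fold changes were those of *Rps29*, *Rpl26*, *Rps27*, *Rpl37a* and *Rps19*, none of which passed the test. *Rps29*, a small zinc-binding protein of the small subunit head, had 2053, 2968 and 3140 TPM in the control siRNA libraries and 3721, 3594 and 3577 TPM in the NCOA4 siRNA libraries (log2 fold change 0.44 ± 0.15, adjusted p = 0.160). *Rps19*, the gene most often mutated in the inherited anaemia of Diamond-Blackfan type, had 303, 389 and 420 TPM against 451, 474 and 486 TPM (0.36 ± 0.12, adjusted p = 0.141). All 5 had groups without overlap and their lowest value in control siRNA replicate 1. Without that library their log2 fold changes were 0.25 (*Rps29*), 0.10 (*Rpl26*), 0.21 (*Rps27*), 0.21 (*Rpl37a*) and 0.22 (*Rps19*), and the adjusted p was 0.0168 for *Rps29*, 0.0340 for *Rps27* and 0.0468 for *Rpl37a* but 0.174 for *Rpl26* and 0.0572 for *Rps19*. The place of *Rpl26* rests on the gene alone: with its annotated copies, described below, added to it, its log2 fold change was 0.08 (adjusted p = 0.376).

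The 5 lowest fold changes were close to 0. *Rpl35*, a protein at the exit of the peptide tunnel, had 1979, 1816 and 1855 TPM in the control siRNA libraries and 1784, 1716 and 1952 TPM in the NCOA4 siRNA libraries (log2 fold change -0.05, 95% interval -0.20 to 0.10). *Rpsa*, which is also known as the laminin receptor, had 4681, 4291 and 4354 TPM against 4353, 4373 and 4431 TPM (-0.02, interval -0.14 to 0.11). *Rps12* had 983, 947 and 925 TPM against 922, 932 and 970 TPM (-0.02, interval -0.12 to 0.08). *Rps6* and *Rpl11* complete this group. The groups overlapped in all 5.

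**Figure D3:**
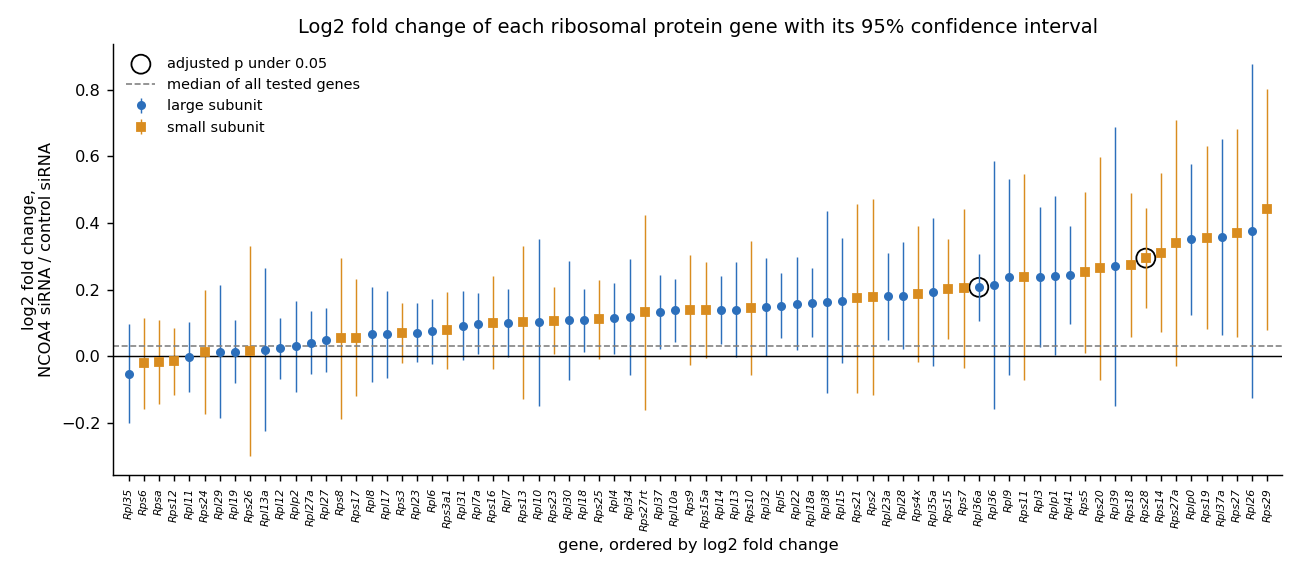
Log2 fold change (NCOA4 siRNA over control siRNA) of each of the 76 members with its 95% confidence interval from limma, in order of size, circles for the large and squares for the small subunit. Points run from -0.05 (*Rpl35*) to 0.44 (*Rps29*), and 2 of them, ringed in black, pass an adjusted p under 0.05; the dashed line is the median of all tested genes, 0.03.

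By place in the ribosome, the median log2 fold change was 0.14 over the 44 large subunit genes and 0.14 over the 32 small subunit genes, with 1 called gene each. It was 0.11 for 9 proteins along the peptide exit tunnel, 0.15 for 4 near the peptidyl transferase centre, 0.14 for 4 at the mRNA entry and decoding site and 0.16 for 4 at the mRNA exit. Over 18 genes mutated in inherited anaemia it was 0.15, with 10 whose groups did not overlap, beside 41 of 76 members and 16.6% of tested genes higher, and 1 called gene, *Rps28*, beside 3.11% of tested genes. The genes of the stalk had 0.14. All of these medians were above the 0.03 of all tested genes, and no difference between places was tested.

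The levels of the members differed 523-fold, although the ribosome holds most of their proteins in equal number. *Rplp1*, *Rpl4*, *Rpl8*, *Rps3a1* and *Rpsa* were highest, with means of 7345, 5403, 4704, 4674 and 4414 TPM, and 44 members averaged at least 1000 TPM. *Rpl4* lines the peptide tunnel, and *Rpl8* lies near the peptidyl transferase centre. *Rpl4* had 5258, 5160 and 5154 TPM against 5637, 5607 and 5600 TPM (log2 fold change 0.11 ± 0.04, adjusted p = 0.212). Lowest were *Rps10* with 14.0, *Rpl35a* with 22.0, *Rpl13a* with 79.3, *Rps27rt* with 88.2 and *Rpl26* with 90.5 TPM. Just inside the threshold lay *Rps10*, with 12.1 to 15.4 TPM, and *Rpl35a*, with 17.9 to 24.0 TPM. Just outside lay *Rpl21*, with 4.71 to 6.53 TPM, and *Rpl24*, with 1.86, 2.40 and 2.61 TPM against 4.85, 3.21 and 4.99 TPM. The values of *Rpl24* rest on 11 to 31 reads per library.

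Much of this range lay where members had near-identical copies. A median of 35.8% of all 100-base stretches of a member's mRNA occurred letter for letter in another annotated gene, and only 5 members had none. Copies were sought only among genes with a transcript annotated as a pseudogene or a name ending in -ps, with or without a number. By shared 31-base stretches, 284 such genes were matched to 66 members. That 280 of them are annotated as pseudogenes follows from this search. Together the 284 held 3.23% ± 0.154 of TPM in the control siRNA group and 3.60% ± 0.0414 in the NCOA4 siRNA group (SD, n = 3 per group). For 13 members the copies held more TPM than the gene itself. *Rpl26* had 53 to 102 TPM, while *Gm15772*, which differs from its mRNA at 2 of 438 bases, had 4534 to 4889 TPM. *Rpl30* had 138 to 171 TPM and *Gm12191*, with 1 mismatch in 348 bases, 823 to 1720 TPM. *Rps10-ps2*, with 5 mismatches in 496 bases, had 632 to 881 TPM beside the 12.1 to 15.4 of *Rps10*. *Gm8730*, with 12 mismatches in 954 bases, had 3404 to 4950 TPM beside the 2228 to 3356 of *Rplp0*.

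A stretch of 30 bases around a mismatch shows how little separates each pair, with differing bases in capitals. The sequences are from GENCODE M21 transcripts (GRCm38), written in the direction of transcription. They lie at chr11:68903283-68903312 (plus strand) and chr5:3236703-3236732 (plus strand) for *Rpl26* and its copy, at chr15:34442692-34442721 (minus strand) and chr11:49678948-49678977 (minus strand) for *Rpl30* and its copy, and at chr17:27631205-27631234 (minus strand) and chr16:20822190-20822219 (minus strand) for *Rps10* and its copy.
Rpl26: tggcacaaccgtccaTgtgggcatccaccc
Gm15772: tggcacaaccgtccaCgtgggcatccaccc
Rpl30: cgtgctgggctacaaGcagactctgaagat
Gm12191: cgtgctgggctacaaAcagactctgaagat
Rps10: aggctggggctggctCAgccactgagttcc
Rps10-ps2: aggctggggctggctGGgccactgagttcc

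With copies added to their gene, the 523-fold range of levels became 84.6-fold, from 86.8 TPM for *Rpl13a* to 7345 TPM for *Rplp1*. *Rpl26* went from place 72 to place 6, *Rps10* from 76 to 53 and *Rpl30* from 71 to 35. How the reads of a gene and its copy were shared out was set by the alignment and counting, so the level of 1 gene alone is uncertain for these members. The median fold change was less touched: with copies added, it was 0.14 over the members, as before, and 1 member, *Rpl36a*, rose (3.27% of tested genes). Single genes could move more, as *Rpl26* did from 0.38 to 0.08 and *Rps28* from 0.29 to 0.41, while *Rps27* stayed at 0.37. Over 24 members with under 25% of their 100-base stretches in other genes the median log2 fold change was 0.16, with 17 that did not overlap, and over 28 members with at least 50% it was 0.11, with 12 that did not overlap, beside 16.6% of tested genes higher and 11.8% lower. *Rps27* and *Rps27rt*, themselves both members, shared 98.4% and 89.5% of their stretches with other genes.

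**Figure D4:**
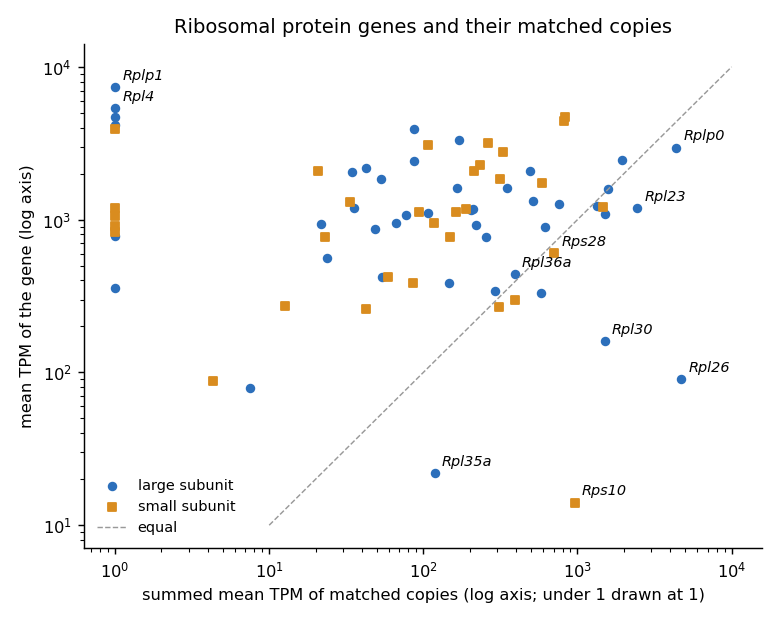
Mean TPM over the 6 libraries of each member (vertical) against the summed mean TPM of its matched copies (horizontal), both on log axes, with members that have under 1 TPM of copies drawn at 1. The 13 points below the dashed line of equal values, *Rpl26*, *Rpl30* and *Rps10* furthest from it, had more TPM on the copies than on the gene.

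*Fau* and *Rack1* also code for proteins of the ribosome but have another kind of name. *Fau*, a fusion of a ubiquitin-like protein with a small subunit protein, had 2123, 2317 and 2678 TPM with control siRNA and 2808, 2934 and 2770 TPM with NCOA4 siRNA (log2 fold change 0.26 ± 0.09, adjusted p = 0.141). *Rack1*, a scaffold on the small subunit, had 958, 1086 and 1127 TPM against 1206, 1211 and 1206 TPM (0.20 ± 0.06, adjusted p = 0.142). Of 8 paralogues left out by name, 5 were tested and 0 were called; *Rpl22l1* had 22.2, 31.6 and 36.1 TPM against 44.9, 41.2 and 44.1 TPM (0.56 ± 0.16, adjusted p = 0.113) and *Rpl36al*, with 1.29, 1.59 and 0.992 TPM against 2.67, 2.44 and 1.84 TPM, had 0.66 ± 0.20 (adjusted p = 0.125). The values of *Rpl36al* rest on 7 to 21 reads per library. *Rps27l*, a p53 target, had a log2 fold change of 0.10 (adjusted p = 0.623), *Rpl7l1* of 0.16 (adjusted p = 0.250) and *Rpl3l* of 0.13 (adjusted p = 0.655).

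For the called counts of the lists from here on, the shares over all tested genes were 3.11% higher and 2.31% lower. The mitochondrial ribosome is built from other proteins. Of its 77 tested genes 0 rose and 3 fell, *Mrpl46*, *Mrpl19* and *Mrpl37*, with log2 fold changes of -0.23, -0.29 and -0.22 (adjusted p = 0.0252, 0.0318 and 0.0451), and the median was 0.00. Cytosolic ribosome assembly factors had a median of -0.02 over 72 genes, with 0 higher and 1 lower, *Ncl* (nucleolin), from 711 ± 33.3 to 616 ± 5.64 TPM (SD, n = 3 each; adjusted p = 0.0490). RNA polymerase I and its factors, which make the ribosomal RNA, had 0.02 over 19 genes with 0 called. No test compared these lists with the members.

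The factors that work with the ribosome were counted in the same way. Of 40 initiation factors 0 rose and 1 fell, *Eif4g1*, the scaffold of the cap-binding complex, from 379 ± 3.35 to 336 ± 5.43 TPM (adjusted p = 0.0330), and the median was -0.05. Of 11 elongation and termination factors 0 were called, with a median of -0.06, and 3 log2 fold changes lay above 0 and 8 below. Among the 3, *Eef1a1* had 15070, 15796 and 15212 TPM against 17577, 17234 and 16875 TPM (log2 fold change 0.17 ± 0.06, adjusted p = 0.179), and *Eef1b2* had 1328 ± 113 against 1554 ± 7.23 TPM (adjusted p = 0.104). Among the 8, *Eef1d* had 164, 165 and 167 TPM against 150, 152 and 149 TPM (log2 fold change -0.14 ± 0.03, adjusted p = 0.0645). Of 20 other mRNAs with a TOP motif, a list that overlaps these, 0 were called and the median was 0.03. Of 19 tested aminoacyl-tRNA synthetases, which charge transfer RNA, 0 rose and 3 fell, *Hars*, *Cars* and *Sars* (log2 fold changes -0.22, -0.28 and -0.18, adjusted p = 0.0140, 0.0164 and 0.0282), with a median of -0.09.

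Of 32 tested genes of mTORC1 and its regulators 1 rose and 2 fell, with a median of 0.02. *Sesn1*, a stress-induced protein that restrains mTORC1, had 22.8, 27.6 and 27.9 TPM with control siRNA and 44.0, 43.5 and 42.7 TPM with NCOA4 siRNA (log2 fold change 0.73 ± 0.08, adjusted p = 0.00681). *Rraga*, a GTPase that brings mTORC1 to the lysosome, had 152, 154 and 160 TPM against 125, 119 and 113 TPM (-0.38 ± 0.05, adjusted p = 0.00885). *Eif4ebp1*, the mTORC1 target that holds back cap-dependent initiation, had 173, 152 and 175 TPM against 127, 124 and 131 TPM (-0.39 ± 0.06, adjusted p = 0.0190). Of 17 tested regulators of growth and of the response to free ribosomal proteins 0 were called; *Myc* had 202, 166 and 164 TPM against 154, 154 and 154 TPM (-0.19 ± 0.08, adjusted p = 0.231). Of 18 cell cycle genes 0 rose and 2 fell, *Ccnd1* and *Ccne1* (log2 fold changes -0.20 and -0.22, adjusted p = 0.0239 and 0.0373).

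Other abundant genes, and short mRNAs among them, were set beside the members as a description, without matching on level. Over 1567 other genes with a mean of at least 100 TPM the median log2 fold change was -0.02. Their median level was 179 TPM, against 1143 TPM for the members. Among those that code for protein, 92 with short mRNAs of up to 600 bases had 0.02, and 324 with 600 to 1000 bases had -0.01. Of 300 annotated ribosomal protein pseudogenes 129 were tested, and the median was 0.24. Of the 129, 5 rose and 0 fell, where 3.11% of all tested genes rose and 2.31% fell. Their sequence can be nearly that of a member, and how reads fitting both were counted is not known. They are therefore not taken as a separate measurement. Of the genes with at least 10 TPM, 8440 others were compared with the median profile of the members over the 6 libraries, as a description. The closest were *Dhx30*, *Aacs*, *Npc2*, *Cmtm7* and the *Rplp0* copy *Gm8730*, with Pearson correlations of 0.996, 0.994, 0.994, 0.994 and 0.994 over 6 libraries.

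**Figure D5:**
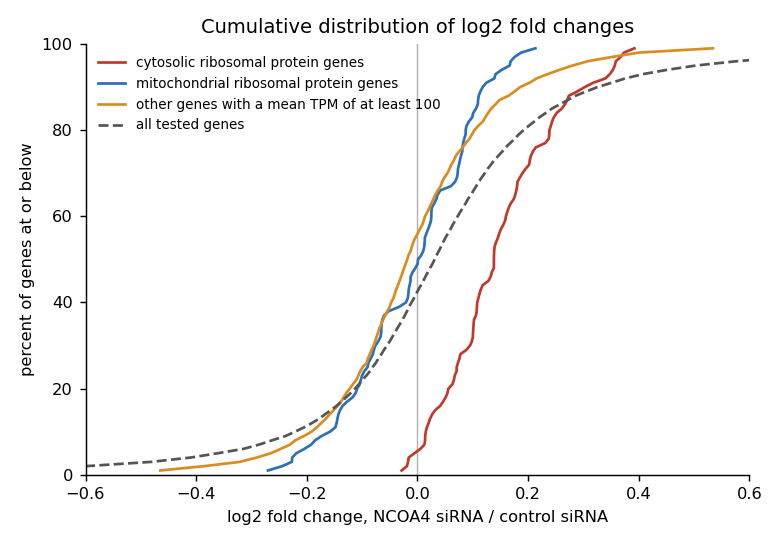
Cumulative percent of genes at or below each log2 fold change (NCOA4 siRNA over control siRNA) for the 76 members, 77 mitochondrial ribosomal protein genes, 1567 other genes with a mean of at least 100 TPM and all 13829 tested genes. The curve of the members crosses 50% at 0.14 and lies to the right of the curves of the mitochondrial genes and of the other abundant genes, which cross 50% at 0.00 and -0.02, except that the other abundant genes lie further right at the top 2 percentiles drawn, 98 (0.40 against 0.37) and 99 (0.53 against 0.39). All tested genes spread further at both ends.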

How the data were processed

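In all, 6 libraries were analysed, 3 of control siRNA and 3 of NCOA4 siRNA, grouped by their labels. Per the labels and the study's methods, total RNA was made into stranded poly(A) libraries and sequenced as paired ends. Per the submitters' processing notes, the authors used Trimmomatic 0.33, FastQC, HISAT2 2.1.0, featureCounts and edgeR with the mm10 build (GRCm38). They deposited TPM per gene with no scaling between libraries, and TPM is a share, so each value depends on all others. How multi-mapped reads were counted is not given in the sources used here.

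Of 55487 gene identifiers, 55227 were named from GENCODE M21 (GRCm38). The unit being TPM, the 13829 genes averaging 0.5 TPM or more went into limma 3.58.1 (R 4.3.3) as log2(TPM + 0.5); lmFit was followed by trended eBayes, no block was used, and p-values were adjusted over all of them (Benjamini-Hochberg). Fold changes are on this scale, and a call is an adjusted p under 0.05. Errors in brackets after a log2 fold change are SE. The p-values measure the spread between 3 cultures per group, and an exact permutation test of 3 against 3 could not go below 0.1. The fit was tested on simulated data, with planted changes larger than any of the members and equal noise in all libraries. It therefore does not show how shifts as small as those of the members are called.

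Whole reads were rebuilt from TPM and exon-union length. Of 21055 genes with a value and a length, 20770 came out within 0.02 of whole reads in all 6 libraries, or 98.5% of the 21096 genes above 0. Reads were used for depth and for limma-voom. Copies were sought among genes with a pseudogene transcript or a -ps name, with members and paralogues left out. They were matched when at least 50% of their 31-base stretches lay in a member's mRNA. Replicates of a group differed by more than sampling noise.

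The members, the gene lists and the motifs were chosen with earlier results of these data known, and the lists come from general knowledge. The genes named were the called members, the 5 highest and 5 lowest by fold change and by level, those beside the threshold of 10 TPM, the stalk, 5S, S6 kinase and ubiquitin-fusion genes, related genes left out by symbol, up to 4 called genes of each other list, and the 5 genes most like the members. Other genes named with values (copies shown beside a member, *Rpl30*, *Eef1a1*, *Eef1b2*, *Eef1d*, *Trp53*, *Mdm2*, *Cdkn1a*, *Myc*, *Lyz2* and *Rps26*) were chosen after their values were seen. Alternatives were other pseudocounts, filters, scalings, variance models, the replicate block, each library left out, reads in place of TPM, and copies added to their gene. Protein sequences were not used here.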

Additional observations from a re-analysis of the deposited data

How the results depend on the processing

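The median log2 fold change of the members stayed positive under all 18 alternatives, between 0.08 (median centring) and 0.16, within the spread between libraries, and the count of members called lower stayed at 0. The other counts depended on the processing, and the cause was not tested. Members called higher (2) numbered 0 with no filter on low TPM, with median centring, with eBayes without a trend and with the replicate block, 4 with quantile normalization, 24 with limma-voom and 1 with copies added, and ranged from 0 to 13 when 1 library was left out: 13 without control siRNA replicate 1, 0 without control siRNA replicate 2, 1 without control siRNA replicate 3 and 0 without each NCOA4 siRNA replicate. All tested genes called (750) numbered 499 with no filter, 404 without a trend, 161 with the replicate block and 1485 with limma-voom, and ranged from 174 to 841 when 1 library was left out. The share of these calls that were higher was 57.3%, and 35.9% with median centring. Of 13829 tested genes, 430 were called higher, 348 with median centring, 260 without a trend, 94 with the replicate block and 405 with quantile normalization. With no filter it was 281 of 21096, with limma-voom 940 of 13609 and with copies added 444 of 13575. Leaving out 1 library gave between 94 of 13848 and 455 of 13868. Whether the members differed from these shares was not tested. The labels give both groups replicate numbers 1 to 3 and do not say whether they pair libraries. Deviations of same-numbered libraries had correlations of 0.03, -0.02 and 0.02, and not every library correlated best with its own number. Those of libraries with other numbers ran from -0.04 to 0.02. Values this near 0, from 3 libraries per group, cannot decide whether the numbers mark pairs. The members' share of all TPM differed by 0.819 to 1.42 percentage points when 1 library was left out, and by 0.590 points as a share of whole reads, an alternative chosen after seeing the data. Near 0, some signs turned. With ribosomal protein genes left out of the scaling total the log2 fold change was 0.018 for *Rpl11*, 0.0044 for *Rps12* and 0.0028 for *Rpsa*. With copies added it was 0.013 for *Rpl11* and 0.041 for *Rps12*, with limma-voom 0.0071 for *Rpl11* and with quantile normalization 0.017 for *Rpsa*. With 1 library left out it ranged from -0.037 to 0.024 for *Rpl11*, from -0.037 to 0.0080 for *Rps12*, from -0.050 to 0.030 for *Rps6* and from -0.042 to 0.021 for *Rpsa*. *Rpl3l* had 38 to 57 reads per library, *Rpl24* had 11 to 31 and *Rpl36al* had 7 to 21. Whether depth limited any call was not tested.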
